A study of Homo sapiens with 12 samples.

Results

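Long non-coding and antisense genes were taken from the tables of splicing changes of HCT116, an established human colon cancer line, by symbol. A row was a member where one of its gene symbols began with LINC or LOC and a digit, ended in an antisense or intronic transcript suffix (-AS1, -AS2, -AS3 or -IT1), or had the form of a microRNA host gene (MIR...HG). Hosts of small nucleolar RNAs with the symbols SNHG, GAS5 and ZFAS1 were kept out. The rule gave 73 of 2365 rows and 51 of 1851 genes. Of these rows, 39 of 1549 intron features and 14 of 459 splicing events came from the MTAP-null tables, and 13 of 258 features and 7 of 99 events from the MTAP-WT tables.

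The 4 groups were MTAP-null cells with AGI24512, MTAP-null cells with the solvent DMSO, MTAP-WT cells with AGI24512 and MTAP-WT cells with DMSO, with 3 libraries each. AGI24512 blocks MAT2A, which synthesises the methyl donor S-adenosylmethionine, and MTAP is the phosphorylase that salvages methionine from methylthioadenosine. Both forms are described as engineered HCT116, and neither the dose, the duration nor the number of clones is given in the sources used here. The libraries held poly-A RNA, and since nothing says that they came from separate cultures, the p-values speak only for variation among the libraries, and that variation could be technical.

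Long non-coding RNAs are transcripts without a long reading frame. Many are spliced and polyadenylated like messenger RNA but stay in the nucleus, where the RNA exosome degrades a large share of them. Antisense genes are read from the strand opposite a neighbouring gene, and microRNA host genes carry hairpins in their introns that Drosha cuts from the primary transcript. A detained intron is one left in a polyadenylated transcript that stays in the nucleus, and methylation of splicing proteins by PRMT5, which uses S-adenosylmethionine, is known to keep such introns low.

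The sequences below are those the results turn on. The MIR100HG introns hold microRNA hairpins on the minus strand of chromosome 11, and the mature 5' arms are shown because these hairpins lie inside the 2 features that rose in MTAP-null cells. Capitals mark the seed, bases 2 to 8, which pairs with target messenger RNAs, and no seed is shared among the 3 (RefSeq, GRCh38.p14).
hsa-miR-125b-5p: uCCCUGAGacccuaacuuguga
hsa-let-7a-5p: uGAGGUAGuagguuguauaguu
hsa-miR-100-5p: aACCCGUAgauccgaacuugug
The exons of FAM211A-AS1 (plus strand, chromosome 17) and LOC100507217 (plus strand, chromosome 15) are shown (GENCODE 29, GRCh38). The first belongs to the member events with the most reads, and the second is the other listed event of that gene. The third lies in the one gene with both an intron feature and an event. In the first, capitals mark the 53 bases found only in the 176-base form of the FAM211A-AS1 exon, 16439528 to 16439703. They end in CAG, the usual end of an intron, next to the first base of the 123-base form.
FAM211A-AS1 skipped exon: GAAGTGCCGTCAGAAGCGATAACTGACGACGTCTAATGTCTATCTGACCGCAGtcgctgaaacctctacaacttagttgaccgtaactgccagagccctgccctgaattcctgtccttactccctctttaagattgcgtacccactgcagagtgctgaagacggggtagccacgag
In the second, capitals mark the 70 bases between a pair of alternative 5' splice sites of another FAM211A-AS1 exon, 16463167 to 16463317. The stretch opens with GTAAGG, which has the form of a 5' splice site.
FAM211A-AS1 exon with alternative end: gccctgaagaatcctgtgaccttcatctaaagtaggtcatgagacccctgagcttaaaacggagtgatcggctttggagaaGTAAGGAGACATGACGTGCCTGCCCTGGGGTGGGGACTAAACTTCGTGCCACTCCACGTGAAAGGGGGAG
In the third, capitals mark the last 3 bases of the LOC100507217 exon, 92883585 to 92883778, which belong to the stretch that U1 small nuclear RNA binds at a 5' splice site.
LOC100507217 skipped exon: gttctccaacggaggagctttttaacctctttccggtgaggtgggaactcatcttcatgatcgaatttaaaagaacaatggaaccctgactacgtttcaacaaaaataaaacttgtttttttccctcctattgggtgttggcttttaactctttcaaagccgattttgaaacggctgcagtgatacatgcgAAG

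Of the 51 genes, 31 had LOC symbols, 12 antisense names, 6 LINC symbols and 2 the names of microRNA hosts. RefSeq now lists 20 of them under another symbol. FAM211A-AS1 is SNHG29, itself a host of small nucleolar RNAs, LOC100507217 is CHASERR, and LOC401320 is GARS1-DT. RefSeq calls 27 of the genes long non-coding RNAs, 6 transcribed pseudogenes, 1 an antisense RNA and 1, LOC100133315, a coding gene, and 16 were not matched in the RefSeq table used. A feature was called sole where every symbol in its name met the rule, which held for 22 of 39 MTAP-null and 8 of 13 MTAP-WT features. The other 17 and 5 also carried the symbol of a gene outside the rule, whose reads cannot be told apart from the member's by the counts alone. Of the genes, 15 were present only in such shared features.

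The intron tables hold the features that passed the authors' own test of usage, the share of a gene's reads that falls in the feature. "Higher usage" and "lower usage" refer to that test in the authors' deposited table. The usage changes given are log2 ratios of the deposited usage scores, which are on a variance-stabilised scale. Their size is therefore not that of a log2 change of the share, and cannot be set against that of the read count. "Rose" and "fell" refer to a separate test of the read count, edgeR's quasi-likelihood test with Benjamini-Hochberg adjustment over all listed features, at an adjusted p under 0.05. Log2 changes are of AGI24512 over DMSO, and normalised counts are reads divided by the size factors recovered from the deposited base means. Reads over the listed features summed to between 113064 and 214530 in the MTAP-null libraries and between 50919 and 65080 in the MTAP-WT libraries, which is not the sequencing depth. Over these features MTAP-null AGI24512 replicate 1 stood apart from its group, with a chi-square per degree of freedom of 3.35 and 5.07 against the other 2 libraries, while the remaining MTAP-null pairs gave 1.39 to 1.74. MTAP-WT AGI24512 replicate 1 (2.76 and 4.07) and DMSO replicate 1 (3.40 and 3.59) also differed from their groups more than the remaining pairs (1.40 and 1.52).

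In MTAP-null cells most member features took more reads with AGI24512, as did most listed features of any gene. The read count rose for 28 of 39 members (71.8%), beside 77.6% of all listed features, and fell for 5 members (12.8%), beside 4.65% of all. Among the sole features 13 of 22 rose and 4 fell, and among the shared features 15 of 17 rose and 1 fell. The median log2 change was 0.95 over the members, 0.74 over the sole features and 0.96 over all listed features. Leaving out AGI24512 replicate 1 gave 31 risen and 5 fallen members. Usage in the authors' deposited table was higher for 34 members, beside 93.5% of all listed features, and lower for 5, beside 6.46%. Every AGI24512 library lay above every DMSO library for 28 members, beside 75.9% of all, and below for 4, beside 5.16%.

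TMM scaling on the listed features takes their shared shift as the baseline. With TMM scaling the median log2 change of all MTAP-null features was 0.11, against 0.96 with the recovered size factors, and that of all MTAP-WT features 0.16, against 0.73. Under that scaling 4 MTAP-null members rose, all of them shared features, and 10 fell. The 5 features that fell with the recovered size factors were all among those 10. Those that fell with TMM scaling alone were PAX8-AS1 E015 (log2 change -1.16), LINC00263 E002 (-1.44), NUTM2A-AS1 (-0.95), LOC441242 E008 (-0.64) and LOC150776 (-0.51). In MTAP-WT cells PAX8-AS1 E014 (-0.61) and LOC100132352 (-0.68) fell with TMM scaling alone. Directions given below are those with the recovered size factors, and where TMM scaling turns one round its value is given.

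By median, the MTAP-null members were similar in width to the listed features and had more reads. Their median deposited base mean was 78.0 normalised counts in MTAP-null cells, beside 44.1 over all listed features, and 35 of 39 had a base mean of 10 or more. They ranged from 4 to 157473 bases, with a median of 2214, beside 2097 over all. An annotated coding gene lay on the same strand for 20 of 39 members (51.3%), beside 97.0% of all listed features, and for 6 of the 22 sole features. On the opposite strand a coding gene lay over 6 members (15.4%), beside 5.68% of all. Reads of those genes may be included, since whether reads were counted by strand is not given in the sources used here. Exact matches to an annotated intron were 48.7% of the members and 68.9% of all. MicroRNA hairpins lay in 2 of 39 members and in 9 of 1549 listed features.

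**Figure D1:**
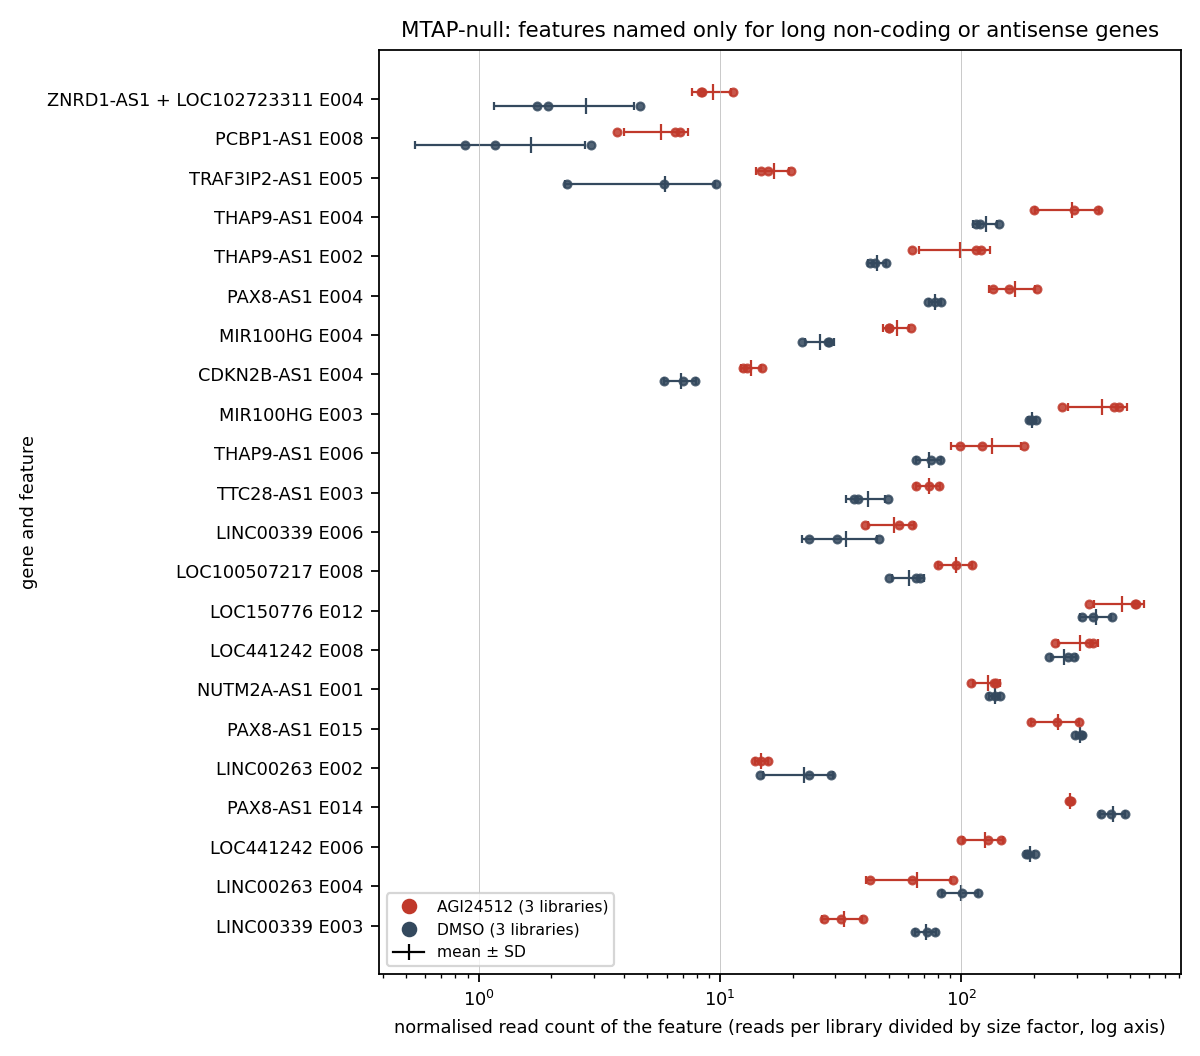
Normalised read counts (log axis) of the 22 MTAP-null features named only for long non-coding or antisense genes, 1 row per feature from the highest to the lowest log2 change, with AGI24512 libraries above DMSO libraries and bars for mean ± SD (n = 3 each). ZNRD1-AS1, PCBP1-AS1 and TRAF3IP2-AS1 at the top are low features, and PAX8-AS1 E014, LOC441242 E006 and LINC00339 E003 near the bottom have every AGI24512 library below every DMSO library.

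MIR100HG, the host of miR-125b-1, let-7a-2 and miR-100, had 2 introns in the MTAP-null table and none in the MTAP-WT table, so its genotypes were not compared. The intron E003 (chromosome 11, 122091741 to 122100373) holds the hairpin of miR-125b-1. Its normalised counts were 260.4, 451 and 429.6 with AGI24512, against 196, 203 and 189.7 with DMSO. All AGI24512 libraries lay above all DMSO libraries, and replicate 1 was the lowest of the AGI24512 group. The read count rose, with a log2 change of 0.95 ± 0.18 (SE, adjusted p = 0.000471) by edgeR's quasi-likelihood test, close to the median of all listed features. Usage was higher by 0.61 on the log2 scale in the authors' deposited table.

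The intron E004 of MIR100HG (chromosome 11, 122116324 to 122155550) holds the hairpins of let-7a-2, miR-100 and miR-10526. Its normalised counts were 50.05, 49.9 and 61.5 with AGI24512, against 21.8, 28.2 and 27.9 with DMSO, again without overlap. It rose by 1.06 ± 0.24 (SE, adjusted p = 0.00144) on the log2 scale in edgeR's test. Per kilobase the first intron held 44.1 normalised counts with AGI24512 and 22.7 with DMSO, and the longer second one 1.37 and 0.662. With TMM scaling the changes were 0.09 and 0.22, neither called. Mature microRNAs were not measured by these libraries.

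THAP9-AS1, a long non-coding gene next to the transposase-derived gene THAP9, had 3 listed introns in MTAP-null cells, and all 3 rose. The intron E004 (chromosome 4, 82895775 to 82897988) had normalised counts of 199, 293 and 367 with AGI24512, against 115, 143 and 119.9 with DMSO. Every AGI24512 library lay above every DMSO library, and the log2 change was 1.18 ± 0.20 (SE, adjusted p = 0.000244) by edgeR's quasi-likelihood test. The neighbouring E002 averaged 98.97 ± 32.1 with AGI24512 and 44.8 ± 3.68 with DMSO (SD, n = 3 each), with an edgeR log2 change of 1.14. The third, E006, averaged 134 ± 43.1 with AGI24512 and 73.6 ± 8.51 with DMSO (SD, n = 3 each), with an edgeR log2 change of 0.87 that was -0.03 with size factors of DESeq2 estimated on the listed features. All 3 also lie on the same strand as annotated transcripts of SEC31A, a coat protein of secretory vesicles, so reads of that gene and of THAP9-AS1 cannot be told apart. THAP9 had no listed feature.

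PAX8-AS1, which is transcribed from the strand opposite PAX8, a transcription factor of kidney and thyroid, had features that moved in opposite directions in the same libraries. Near its start, E004 (chromosome 2, 113236623 to 113238089) had normalised counts of 135, 158 and 205 with AGI24512, against 82.1, 72.9 and 77.99 with DMSO in MTAP-null cells. The AGI24512 libraries were all higher, and the read count rose by 1.10 ± 0.19 (SE, adjusted p = 0.000291) on the log2 scale in edgeR's test. In MTAP-WT cells the same feature had 153, 134 and 150.03 with AGI24512, against 76.2, 86.2 and 83.3 with DMSO. It rose there too, by 0.83 ± 0.16 (SE, adjusted p = 4.05e-06) in edgeR's test, without overlap between the groups. The difference between genotypes, MTAP-null minus MTAP-WT, was 0.26 ± 0.22 (SE) and was not called (adjusted p = 0.452 in edgeR's drug-by-genotype term).

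The last stretch of the gene, E014 (chromosome 2, 113265581 to 113267023), is labelled with the names of annotated transcripts and ends at the last base of the gene in RefSeq. In MTAP-null cells its normalised counts were 285, 278 and 281 with AGI24512, against 417, 477 and 379 with DMSO. Every AGI24512 library was below every DMSO library, and the read count changed by -0.59 ± 0.12 (SE, adjusted p = 0.000916) on the log2 scale in edgeR's test, or -1.55 relative to the median of the table. In MTAP-WT cells it had 389, 456 and 459.5 with AGI24512, against 485, 459 and 399.9 with DMSO. These groups overlapped, and edgeR made no call, with a log2 change of -0.05 ± 0.12 (SE, adjusted p = 0.721) that was 0.03 without AGI24512 replicate 1 and 0.02 without DMSO replicate 1. Relative to the median of the MTAP-WT table it was -0.78, and with TMM scaling -0.61, which was called (adjusted p = 0.000145). Usage was lower in both genotypes in the authors' deposited table, with log2 changes of -0.31 in MTAP-null and -0.11 in MTAP-WT cells.

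The response of E014 differed between genotypes in edgeR's drug-by-genotype term, by -0.55 ± 0.15 (SE, adjusted p = 0.0117 over the 92 features listed in both tables), a term that called 17 of those 92 features (18.5%). The difference was -0.46 without MTAP-null DMSO replicate 2 and then not called (adjusted p = 0.0514). Directly after it lies E015 (chromosome 2, 113267024 to 113424496), a stretch of 157473 bases that was listed for MTAP-null only. It begins at the base after the end of the gene in RefSeq. In GENCODE 29, however, PAX8-AS1, AC016745.1 and IGKV1OR2-108 all overlap this stretch on the same strand. E015 had 195, 249 and 307 with AGI24512, against 316, 314 and 296 with DMSO. The groups overlapped through AGI24512 replicate 3, and edgeR's test made no call, with a log2 change of -0.30 ± 0.16 (SE, adjusted p = 0.0818) that was -0.48 and called without that library (adjusted p = 0.00897) and -0.15 without AGI24512 replicate 1 (adjusted p = 0.256). PAX8 itself had no listed feature, but it is annotated on the opposite strand of E004, E014 and E015. As counting by strand is not stated in the sources used here, reads of PAX8 may be included in these features.

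**Figure D2:**
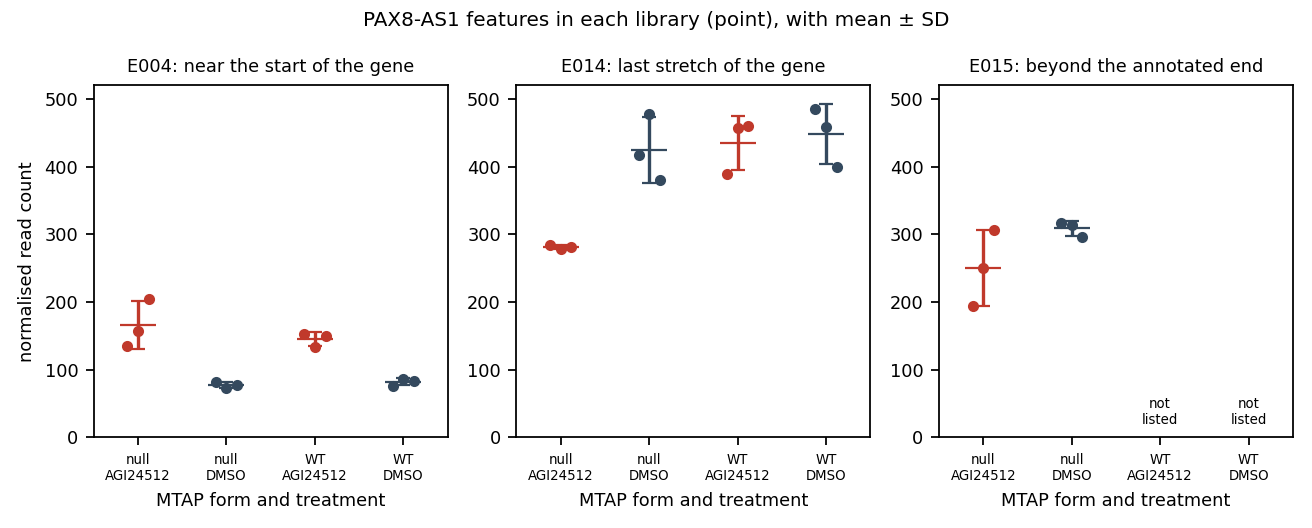
Normalised read counts of the PAX8-AS1 features in every library, by MTAP form and treatment, with bars for mean ± SD (n = 3 each). The annotated end named for E015 is that of RefSeq. E004 is higher with AGI24512 in both genotypes, while for E014 the 3 MTAP-null AGI24512 libraries lie below the MTAP-null DMSO libraries. Size factors were recovered within each genotype, so levels are not to be compared between MTAP-null and MTAP-WT.

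Beside PAX8-AS1 E014, 3 sole features fell in MTAP-null cells. LINC00339, a long intergenic gene on chromosome 1, had a 4-base feature, E003 (22025640 to 22025643), that carries the names of annotated transcripts. At that length its reads also cover neighbouring bases. AL031281.2 and AL590556.3 are annotated over it on the same strand, and LINC01635 on the opposite strand. The normalised counts of E003 were 26.9, 31.7 and 39.1 with AGI24512, against 77.8, 71.9 and 64.02 with DMSO. The groups did not overlap, and edgeR gave a log2 change of -1.13 ± 0.23 (SE, adjusted p = 0.000717). Its intron E006 (chromosome 1, 22027535 to 22030279) rose in the same test, by 0.64 ± 0.27 (SE, adjusted p = 0.0412), although its groups overlapped. That call was lost with DESeq2 and when AGI24512 library 2 or 3 or DMSO library 1 or 3 was removed (0.46 to 0.60), and the value was -0.21 with TMM scaling. AL031281.2 and AL590556.3 are annotated over E006 on the same strand as well, and AL031281.3 on the opposite strand.

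LOC441242, now LINC03006, had 2 neighbouring features in the MTAP-null table, and 1 of them fell. E006 (chromosome 7, 65695947 to 65715496) had normalised counts of 99.2, 129 and 146 with AGI24512, against 201, 189 and 185 with DMSO. All AGI24512 libraries were lower, and edgeR's test gave -0.62 ± 0.17 (SE, adjusted p = 0.00445). E008 (chromosome 7, 65715849 to 65726770) had 244, 337 and 350.4 with AGI24512, against 292, 231 and 277 with DMSO. These groups overlapped, and the log2 change of 0.22 ± 0.16 (SE, adjusted p = 0.199) in edgeR's test was not called, was -0.64 with TMM scaling, and was 0.37 and called without AGI24512 replicate 1 (adjusted p = 0.00425). The pseudogene INTS4P2 is annotated on the opposite strand of both, and whether reads were counted by strand is not given in the sources used here.

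LINC00263, now OLMALINC, was the one member gene where usage was called higher and the read count lower. Its feature E004 (chromosome 10, 100381449 to 100382427) had normalised counts of 62.1, 91.8 and 41.9 with AGI24512, against 117, 82.6 and 100.1 with DMSO. AGI24512 replicate 2 lay above DMSO replicate 2, so the groups overlapped, while edgeR called the fall at -0.63 ± 0.25 (SE, adjusted p = 0.0306). Removing AGI24512 library 3 (-0.39), DMSO library 1 (-0.49) or DMSO library 3 (-0.63) ended the call. Usage was higher by 0.53 in the authors' deposited table. The short intron E002 of the same gene had normalised counts of 15.8, 14.7 and 13.98 with AGI24512, against 28.8, 14.6 and 23.3 with DMSO, and its usage was higher by 0.55 in the authors' deposited table. Its log2 change was -0.59 ± 0.32 (SE, adjusted p = 0.0996) in edgeR's test, not called with all libraries, -0.83 and called without DMSO replicate 2, and -0.33 without DMSO replicate 1. Among all MTAP-null features, 0.775% had higher usage with a fallen read count.

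In all, 6 of 39 MTAP-null members had higher usage without a risen read count, beside 16.2% of all listed features. Besides LINC00263 E002 and E004 and LOC441242 E008, these were LOC150776, NUTM2A-AS1 and the shared feature of LOC102724867 and RNF19A. LOC150776, a transcribed pseudogene related to the sphingomyelinase gene SMPD4, was the sole feature with the most reads (chromosome 2, 131508609 to 131515601). It had 336, 524 and 528 with AGI24512, against 315, 421 and 352 with DMSO. The groups overlapped, and edgeR's log2 change was 0.35 ± 0.16 (SE, adjusted p = 0.0565), and -0.51 with TMM scaling. Leaving out 1 library gave 0.24 to 0.54, called without AGI24512 replicate 1 (0.54) or DMSO replicate 2 (0.47) and lowest without AGI24512 replicate 3. NUTM2A-AS1, antisense to NUTM2A, had 109, 139 and 136 with AGI24512, against 138, 130.2 and 144 with DMSO. Its groups overlapped as well, with an edgeR log2 change of -0.10 ± 0.17 (SE, adjusted p = 0.568) while the authors' deposited table gave 0.26 for usage. The shared feature with RNF19A averaged 22.8 ± 7.71 with AGI24512 and 13.8 ± 3.49 with DMSO (SD, n = 3 each) and was not called by edgeR's test (adjusted p = 0.0505), with a log2 change of 0.75, or -0.09 under TMM scaling. Leaving out 1 library moved it between 0.43 (without AGI24512 replicate 3) and 0.94 (without DMSO replicate 3), and it was called on leaving out AGI24512 library 1, AGI24512 library 2 or DMSO library 3.

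**Figure D3:**
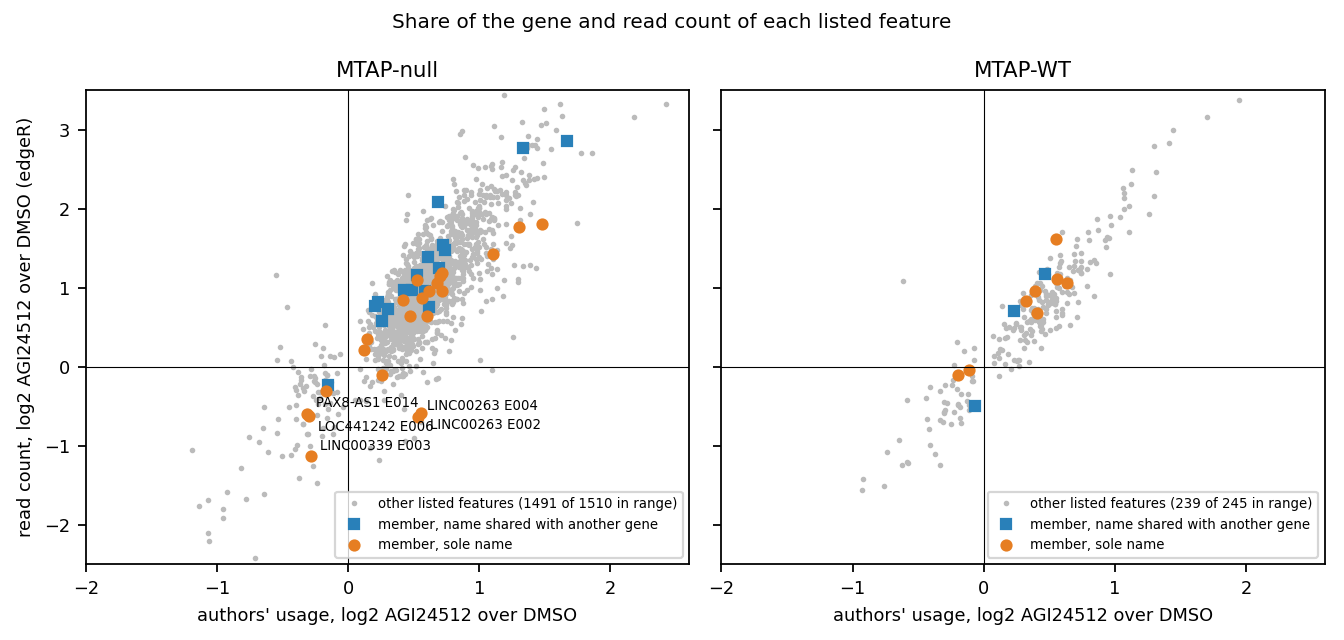
Authors' usage change (horizontal, log2 ratio of the usage scores) against the change of the read count (vertical, log2) for the listed features of MTAP-null (left) and MTAP-WT cells (right), with a few grey points and the 2 lowest MTAP-WT members beyond the axes or left out. The axes are on different scales, and the horizontal one is not a log2 change of the share. Most members lie in the upper right with the grey features, the LINC00263 features in the lower right, and PAX8-AS1 E014, LOC441242 E006 and LINC00339 E003 in the lower left.

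The largest usage changes among sole MTAP-null features were in low features. ZNRD1-AS1 with LOC102723311, on chromosome 6 (30010070 to 30010751), had 8.34, 11.3 and 8.39 with AGI24512, against 1.75, 1.94 and 4.66 with DMSO. PCBP1-AS1 on chromosome 2, named for the RNA-binding protein gene PCBP1, had 6.49, 6.803 and 3.73 with AGI24512, against 0.874, 2.91 and 1.16 with DMSO. TRAF3IP2-AS1 on chromosome 6, opposite a signalling adaptor of the interleukin-17 receptor, had 15.8, 14.7 and 19.6 with AGI24512, against 9.61, 5.83 and 2.33 with DMSO. In all 3 the AGI24512 libraries lay above the DMSO libraries, and the counts per library were at most 19.6. The edgeR log2 changes were 1.81 ± 0.51 (SE, adjusted p = 0.0053), 1.77 ± 0.64 (SE, adjusted p = 0.0198) and 1.43 ± 0.42 (SE, adjusted p = 0.00614). The PCBP1-AS1 call did not hold with DESeq2 or when AGI24512 library 2 (1.63), DMSO library 1 (1.41) or DMSO library 3 (1.61) was removed.

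CDKN2B-AS1, also known as ANRIL, runs antisense to the cell cycle inhibitor CDKN2B and lies beside MTAP on chromosome 9. Its intron E004 (22032987 to 22046316) had 12.97, 12.5 and 14.9 with AGI24512, against 7.86, 5.83 and 6.98 with DMSO in MTAP-null cells. The groups did not overlap, with an edgeR log2 change of 0.96 ± 0.36 (SE, adjusted p = 0.0233). The call did not hold with DESeq2 or when AGI24512 library 3 (0.88) or DMSO library 2 (0.85) was removed. The gene had no listed feature in MTAP-WT cells, and how far the engineered change at MTAP extends is not given in the sources used here. TTC28-AS1 on chromosome 22 averaged 73.2 ± 8.11 with AGI24512 and 40.9 ± 7.55 with DMSO (SD, n = 3 each) and rose in edgeR's test, by 0.84 ± 0.22 (SE, adjusted p = 0.00347), a value that was -0.0046 with TMM scaling and -0.04 with size factors of DESeq2 on the listed features.

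LOC100507217, or CHASERR, is a nuclear long non-coding gene next to CHD2, a chromatin remodeller whose level it is known to limit. It was the one gene with both an intron feature and an rMATS event. The intron E008 (chromosome 15, 92892073 to 92897723) had normalised counts of 79.7, 95.2 and 111 with AGI24512, against 67.3, 65.1 and 50.1 with DMSO. All AGI24512 libraries were higher, and the read count rose by 0.64 ± 0.21 (SE, adjusted p = 0.0112) in edgeR's test. Removing AGI24512 library 3 (0.51) or DMSO library 3 (0.53) ended the call, and the value was -0.21 with TMM scaling. The feature matches an annotated intron exactly, and a further gene, AC013394.1, is annotated over it on the same strand.

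Shared features mostly rose, and their counts alone do not separate the member's reads from those of the other gene. Of the 15 genes present only in shared features, 12 were not matched in the RefSeq table used. HILPDA, a lipid droplet protein induced by hypoxia, with LOC102724660 had 4 features in MTAP-null cells. The most abundant, E004 (chromosome 7, 128457300 to 128458418), carries the names of annotated transcripts and had 789.6, 726 and 779.97 with AGI24512, against 945, 883 and 864 with DMSO. All AGI24512 libraries were lower, and edgeR called the fall at -0.23 ± 0.09 (SE, adjusted p = 0.0266), a call lost with DESeq2 and when AGI24512 library 2 or any 1 DMSO library was removed (-0.26 to -0.19). The next feature downstream, E005, had 211, 255 and 327 with AGI24512, against 124, 136 and 94.3 with DMSO, and rose in edgeR's test by 1.16 ± 0.19 (SE, adjusted p = 0.000185). E006 and E008, of 40 and 27 bases, rose as well, with edgeR log2 changes of 1.54 and 2.76. E008 had 9, 10 and 22 reads with AGI24512 and 0, 3 and 3 with DMSO, and its change ranged from 2.08 (without DMSO replicate 1) to 3.28 (without DMSO replicate 3).

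HILPDA E004 was also listed in MTAP-WT cells, with 520.3, 594 and 584 with AGI24512, against 836, 789 and 765 with DMSO. It fell there too, with an edgeR log2 change of -0.49 ± 0.11 (SE, adjusted p = 7.43e-05) and no overlap. The difference between genotypes was 0.26 ± 0.12 (SE) and not called (adjusted p = 0.127 in edgeR's drug-by-genotype term). In the authors' deposited table its usage was lower in both, at -0.16 in MTAP-null and -0.06 in MTAP-WT cells. The 3 features tested between genotypes, PAX8-AS1 E004 and E014 and HILPDA E004, were the members listed in both tables with the same coordinates.

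Among the other shared MTAP-null features, CFLAR (an inhibitor of caspase-8) with LOC102724614 had 33.4, 38.6 and 36.3 with AGI24512, against 12.2, 5.83 and 6.98 with DMSO. It rose by 2.08 ± 0.32 (SE, adjusted p = 0.000157) in edgeR's test, without overlap, and was again called with TMM scaling at 1.23. GSTO2, a glutathione transferase, with LOC102724376 had 2 risen features, and E005 had 94.5, 121 and 116 with AGI24512, against 42.8, 37.9 and 38.4 with DMSO. Its edgeR log2 change was 1.47 ± 0.20 (SE, adjusted p = 6.18e-05), and 0.62 and still called with TMM scaling. MFGE8, a secreted glycoprotein, with LOC102724554 had 6.49, 9.07 and 13.05 with AGI24512, against 0.874, 1.94 and 1.16 with DMSO, and rose in edgeR's test with a log2 change of 2.86 ± 0.60 (SE, adjusted p = 0.000973). The other 9 were the second GSTO2 feature and those with KLHDC4, ZNF83, ZFAND5, PRKAR1A, KMT2A and ARHGAP22, the KLHDC4 and ZNF83 ones 2 each, with edgeR log2 changes from 0.58 to 1.39. Of these, PRKAR1A (-0.27), KLHDC4 E004 (-0.11) and the ZNF83 features (-0.10 and -0.04) were below 0 with TMM scaling.

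In MTAP-WT cells the read count rose for 10 of 13 members, beside 70.5% of all listed features, and fell for 1, beside 14.3%. The median log2 change was 0.96 over the members and 0.73 over all listed features. In the authors' deposited table usage was higher for 10 members, beside 79.1% of all, and lower for 3, beside 20.9%. Every AGI24512 library lay above every DMSO library for 10 members, beside 69.4% of all. All 10 members with higher usage were also the 10 that rose in edgeR's test, while 9.69% of all listed features had higher usage without a risen read count. Genes with features numbered 26 in MTAP-null and 13 in MTAP-WT cells, with 3 in both, PAX8-AS1, LOC102724660 and LOC102724296. A gene missing from one table had no feature that passed there and is not shown to respond in one genotype alone.

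MIR4435-1HG, now MIR4435-2HG, is the host of miR-4435-2 on chromosome 2 and had 1 listed intron, E003 (111429621 to 111469786), in MTAP-WT cells. Its normalised counts were 61.2, 72.7 and 55.6 with AGI24512, against 20.2, 28.04 and 43.7 with DMSO. The groups did not overlap, and the read count rose by 1.06 ± 0.22 (SE, adjusted p = 9.26e-06) in edgeR's test. LINC00669, now MIR924HG, had 34.3, 35.9 and 26.2 with AGI24512, against 25.7, 21.8 and 12.5 with DMSO in an intron of 12539 bases on chromosome 18. Its groups did not overlap either, but the edgeR call, at 0.67 ± 0.27 (SE, adjusted p = 0.0153), did not hold with DESeq2 or when AGI24512 library 1 (0.62), AGI24512 library 2 (0.59) or DMSO library 3 (0.44) was removed. Neither of these introns holds a microRNA hairpin of the RefSeq table.

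NR2F1-AS1, divergent from the nuclear receptor gene NR2F1, had the longest sole intron listed in MTAP-WT cells, E004 (chromosome 5, 93438742 to 93496056). It had 53.8, 76.7 and 61.9 with AGI24512, against 31.2, 39.5 and 28.1 with DMSO. All AGI24512 libraries were higher, and it rose by 0.96 ± 0.21 (SE, adjusted p = 3.44e-05) in edgeR's test. NR2F1 was the one sense partner of the antisense members with a listed feature of its own, and that was in MTAP-null cells. The NR2F1 feature E003 averaged 107 ± 36.7 with AGI24512 and 64.3 ± 5.88 with DMSO (SD, n = 3 each), an edgeR log2 change of 0.73 (adjusted p = 0.0102).

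LOC401320, now GARS1-DT, is divergent from GARS1, the glycyl-tRNA synthetase gene, on chromosome 7 and had 38.95, 18.9 and 33.6 with AGI24512, against 3.67, 15.6 and 11.5 with DMSO. It rose by 1.62 ± 0.32 (SE, adjusted p = 4.9e-06) in edgeR's test, and was also called, at 1.04, with TMM scaling. LOC100131564, now CCDC18-AS1, had 28.8, 33.9 and 27.3 with AGI24512, against 14.7, 12.5 and 14.6 with DMSO. It rose by 1.11 ± 0.29 (SE, adjusted p = 0.000438) in edgeR's test, and in both genes no AGI24512 library overlapped with DMSO. LOC100132352, now the pseudogene FRG1HP, had lower usage in the authors' deposited table (-0.20) and counts of 127, 109 and 122 with AGI24512, against 139, 117 and 128 with DMSO. These overlapped, and edgeR's test made no call, with a log2 change of -0.11 ± 0.16 (SE, adjusted p = 0.513).

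The shared MTAP-WT features with ZNF644, a zinc-finger gene, and PRKAR1A, the regulatory subunit of protein kinase A, both rose in edgeR's test. The ZNF644 feature had 83.5, 68.8 and 68.2 with AGI24512, against 22.02, 37.4 and 39.6 with DMSO, a log2 change of 1.17 ± 0.21 (SE, adjusted p = 4.44e-07). The PRKAR1A feature had 175, 136 and 137 with AGI24512, against 85.3, 94.5 and 94.8 with DMSO, a log2 change of 0.71 ± 0.16 (SE, adjusted p = 4.95e-05), and is another feature than the one listed in MTAP-null cells. The last 2 features were near the detection limit. The one naming LOC100499484 with CCDC180 had 13, 6 and 2 reads with AGI24512 and none in the 3 DMSO libraries, at least 6.74-fold higher against a floor of 3 counts over the group. LINC00843 with AGAP6 had 9, 4 and 6 reads with AGI24512 and 1 read in all with DMSO, a ratio of 18.9 with an exact 95% interval of 3.0 to 784 that covers counting error only.

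**Figure D4:**
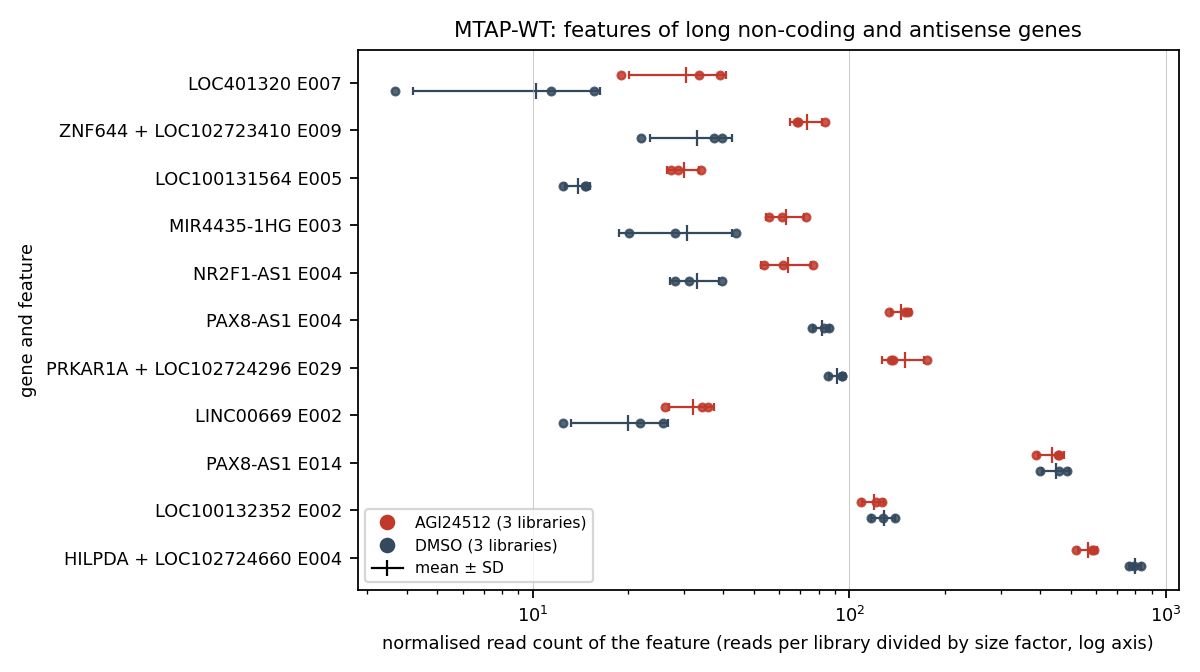
Normalised read counts (log axis) of 11 of the 13 MTAP-WT member features, AGI24512 libraries above DMSO libraries, with bars for mean ± SD (n = 3 each); the 2 features at or near 0 with DMSO are left out. AGI24512 libraries lie above DMSO libraries in the upper 8 rows, overlap with them for PAX8-AS1 E014 and LOC100132352, and lie below them for HILPDA with LOC102724660.

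Splicing events of member genes came from the authors' rMATS tables, which give an inclusion level for each library of 2 sample sets without naming the treatment of a set. Levels are therefore given by set, and no direction with the drug is stated. Of the 14 MTAP-null events, 8 had lower inclusion in set 1 (44.2% of all 459 listed events did), and of the 7 MTAP-WT events all 7 did (50.5% of all 99). Reads of an event are its inclusion and skipping counts together, and the inclusion counts can hold reads within the exon or intron. At least 20 reads in every library were found for 6 events in 4 genes in MTAP-null cells and for 4 events in 3 genes in MTAP-WT cells. In all 10 of these the levels of the sets did not overlap, which was also so for 99% of the 312 MTAP-null events and 100% of the 46 MTAP-WT events of any gene with that many reads. Without a minimum of reads, the sets did not overlap for 8 of 14 MTAP-null members, beside 90.2% of all, and for 5 of 7 MTAP-WT members, beside 91.9%.

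FAM211A-AS1, or SNHG29, had the deepest events, with 22904 to 54462 reads per MTAP-null library. The 123-base exon (16439581 to 16439703), the lower-case part of the first exon sequence above, had inclusion levels of 0.191, 0.198 and 0.19 in set 1 and 0.343, 0.34 and 0.344 in set 2 in MTAP-null cells in the authors' deposited table (FDR = 3.86e-07). Its levels in the MTAP-WT table were 0.164, 0.184 and 0.187 in set 1 and 0.317, 0.312 and 0.317 in set 2 (FDR = 2.89e-05 in the authors' deposited table). The libraries of a set lay closer to each other than to any library of the other set, and set 1 was lower in both genotypes. The 176-base form with the 53 bases in capitals had 0.177, 0.186 and 0.181 in set 1 and 0.301, 0.299 and 0.303 in set 2 in the authors' deposited MTAP-null table. In the authors' deposited MTAP-WT table it had 0.153, 0.164 and 0.165 in set 1 and 0.279, 0.279 and 0.283 in set 2. Both forms are counted against the same skipping reads, 22926, 14599 and 18553 in the libraries of MTAP-null set 1, so the events are not independent.

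The alternative 5' splice site of FAM211A-AS1, whose 70 bases are in capitals above, was listed in MTAP-null cells only. The level of the longer exon was 0.957, 0.937 and 0.902 in set 1 and 0.765, 0.563 and 0.736 in set 2 in the authors' deposited table (FDR = 0.0302). Set 1 was higher without overlap, but the libraries held 27 to 60 reads of the event. Reads for the shorter exon were 1, 1 and 3 in set 1 and 9, 12 and 8 in set 2.

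The 194-base exon of LOC100507217 had inclusion levels of 0.284, 0.282 and 0.346 in set 1 and 0.139, 0.178 and 0.166 in set 2 in the authors' deposited MTAP-null table (FDR = 0.0107). The sets did not overlap, with 226 to 311 reads per library. LINC00623 had a retained intron of 434 bases on chromosome 1 (120952786 to 120953219) with levels of 0.584, 0.564 and 0.631 in set 1 and 0.387, 0.401 and 0.414 in set 2 in the authors' deposited table. Set 1 was higher there too, and 13.7% of the 51 retained introns listed for MTAP-null cells were lower in set 1. LOC102723356, now ZFPM2-AS1, had a skipped exon of 155 bases with levels of 0.714, 0.725 and 0.836 in set 1 and 1, 0.979 and 0.98 in set 2 in the authors' deposited table, and 87 to 128 reads per library.

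In MTAP-WT cells LOC80154, now the pseudogene GOLGA2P10, had an alternative 3' splice site with levels of 0.156, 0.142 and 0.187 in set 1 and 0.284, 0.308 and 0.307 in set 2 in the authors' deposited table, over 237 to 356 reads. It belongs to a family of near-identical golgin pseudogenes, so the assignment of its reads is uncertain. LOC100129917, now PCGF3-AS1, had a retained intron of 1083 bases with levels of 0.57, 0.359 and 0.581 in set 1 and 0.637, 1 and 0.832 in set 2 in the authors' deposited table. These did not overlap, but rest on at most 8 spliced reads in any library. The other 11 events, in LOC101930010 (2), LOC100133315, LOC102724930, LINC00869, LOC101927773, RAP2C-AS1, LOC101929959, SDCBP2-AS1, LOC101928070 and LOC102723722, had 1 to 33 reads per library, with levels from 0 to 1 and overlapping sets in 8 of the 11.

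**Figure D5:**
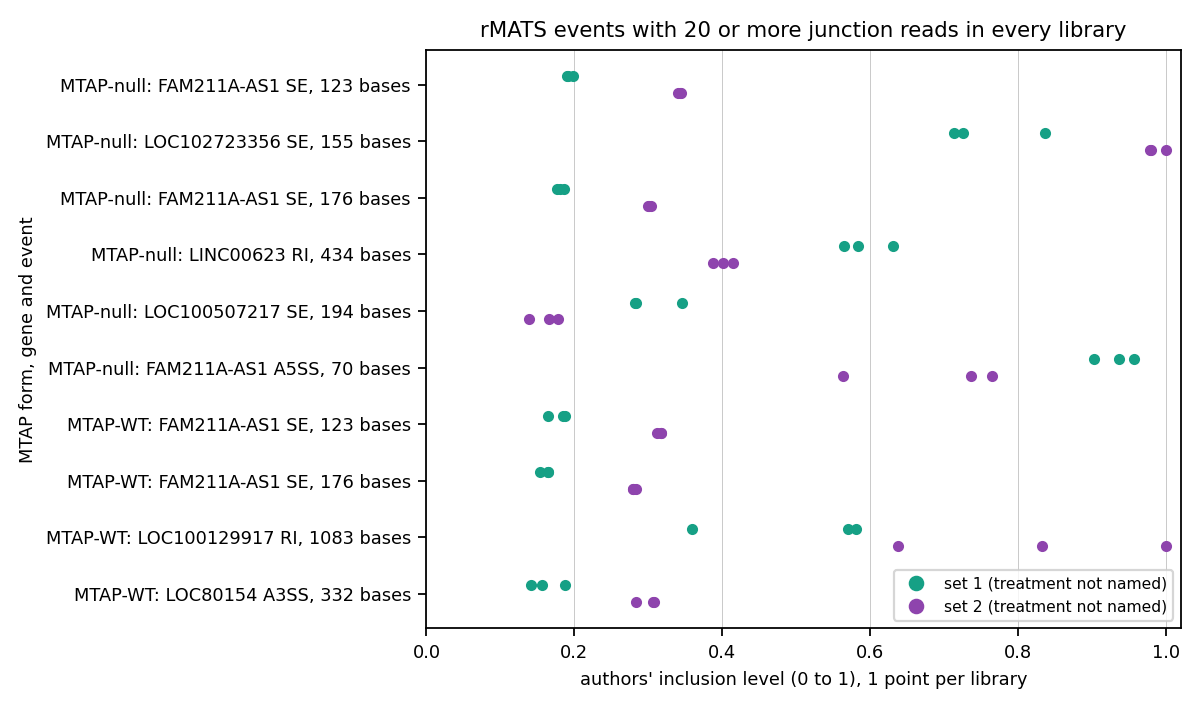
Authors' inclusion level per library for the 10 member events with 20 or more reads in every library, MTAP-null events above MTAP-WT events, set 1 above set 2. The junction reads named in the title are inclusion plus skipping reads, which can include reads within the exon or intron. The FAM211A-AS1 exons lie at 0.153 to 0.198 in set 1 and 0.279 to 0.344 in set 2 over both genotypes.

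Further genes were looked up by list. Of 45 further long non-coding genes looked up by symbol, DLEU2 was listed in MTAP-null cells and HCG18 (with HCG17) in MTAP-WT cells, 1 feature each. The list held CHASERR, which appears here only as the member LOC100507217, so genes listed under other symbols could be missed. The DLEU2 intron, in the host of a pair of tumour suppressor microRNAs, averaged 176 ± 14.5 with AGI24512 and 117 ± 13.3 with DMSO (SD, n = 3 each), and rose in edgeR's test (log2 change 0.59, adjusted p = 0.00487). The HCG18 feature averaged 385 ± 23.1 with AGI24512 and 364 ± 49.2 with DMSO (SD, n = 3 each), with overlapping groups and no call in edgeR's test (log2 change 0.08, adjusted p = 0.546). Of 38 genes that degrade or retain polyadenylated RNA in the nucleus, 4 were listed in MTAP-null cells with 5 features, and 0 in MTAP-WT cells. In the authors' deposited table usage was higher for all 5, and all 5 rose in edgeR's test, beside 93.5% and 77.6% of all MTAP-null features. The listed feature of the exosome subunit EXOSC9 rose by 1.79 in edgeR's test. That of the exosome nuclease EXOSC10 rose by 1.33 and that of the m6A reader YTHDC1 by 0.64. These are read counts of single features, not levels of the genes. The 2 features of the nuclear matrix protein MATR3, shared with SNHG4, rose by 1.16 and 0.96. Of 15 cell type markers only keratin KRT8 was listed, so these tables cannot check the identity of the line.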

How the data were processed

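The submitters read poly-A RNA of 12 HCT116 libraries, 3 per group, from both ends (HiSeq, per the labels' protocols). Groups and replicate numbers were taken from the labels. Only tables of the authors' comparisons were used here, 6 per genotype. For aligner, tool version and build nothing is stated in the sources read, while coordinates matched introns of GENCODE 29 (GRCh38) exactly for 1068 of 1549 and 160 of 258 features.

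The deposited intron tables were made with DEXSeq, per the file headers. They hold raw read counts per feature and library, a base mean signal (deposited, averaging size-factor-scaled counts over the libraries), a deposited usage score per treatment on a variance-stabilised scale, a deposited log2 fold of usage and the authors' adjusted p-values. The deposited log2 fold is the log2 ratio of the usage scores, not of the shares themselves. The sign of the log2 fold, DMSO over AGI24512 as deposited, was turned so that positive is higher with AGI24512. Every listed feature had passed the authors' test, and only listed features were analysed. The rMATS tables hold the authors' inclusion level per library as a fraction, a deposited score (the level of set 1 minus that of set 2), inclusion and skipping read counts, p-values and FDR, per the file headers. Read counts in cells of the deposited tables that had lost separators were split in the one way that gave back the deposited levels within 0.00051, which was found for 456 of 459 and 99 of 99 events.

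Read counts were tested with edgeR 4.0.16 (quasi-likelihood, R 4.3.3) within each genotype on every listed feature, with size factors recovered from the deposited base means (0.859 to 1.14 and 0.953 to 1.09), no filter on low counts and Benjamini-Hochberg adjustment over all listed features. Features in both tables were tested in 1 model with a drug-by-genotype term. Alternatives were TMM and DESeq2 1.42.0 scaling on the listed features, DESeq2, a base mean of 10 or more, a replicate block, sole features, features not named for a transcript, stricter authors' thresholds of 0.01, and leaving out each library. The edgeR fit was first run on simulated data with known changes. The depth of the libraries is unknown.

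Members and lists were chosen with earlier results of these data known. Named features were those in both genotypes, the 12 sole features with the highest base mean per genotype, the 4 largest and 4 smallest usage changes, those with lower usage, microRNA hosts, genes with 2 or more features or an rMATS event, and antisense genes with a listed sense partner; features beyond these were named because every member is accounted for.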

Additional observations from a re-analysis of the deposited data

Results flagged for a closer look

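PAX8-AS1 E014 differed between genotypes in its response. The difference of the log2 changes of the read count, MTAP-null minus MTAP-WT, was -0.55 ± 0.15 (SE, adjusted p = 0.0117 in edgeR's drug-by-genotype term). The feature was lower in 3 of 3 AGI24512 libraries than in every DMSO library in MTAP-null cells, and the groups overlapped in MTAP-WT cells. PAX8 is annotated on the opposite strand of the feature, and its reads may be included. The call was lost without MTAP-null DMSO replicate 2, where the difference was -0.46 (adjusted p = 0.0514), and also with a replicate block.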

How the results depend on the processing

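Scaling decided most calls. With TMM and with DESeq2 size factors on the listed features, 4 MTAP-null members rose and 10 fell, and 4 MTAP-WT members rose and 3 fell, against 28, 5, 10 and 1 with the recovered size factors. Under those 2 scalings the log2 change was below 0, in that order, at -0.21 and -0.25 for LINC00339 E006 and LOC100507217 E008, -0.11 and -0.15 for KLHDC4 E004, -0.092 and -0.13 for RNF19A E017, -0.51 and -0.54 for LOC150776, -0.64 and -0.68 for LOC441242 E008, -0.27 and -0.30 for PRKAR1A E020, -0.0046 and -0.040 for TTC28-AS1, -0.10 and -0.14 for ZNF83 E012 and -0.042 and -0.078 for ZNF83 E013, and for THAP9-AS1 E006 it was -0.030 with the second only. Both scalings take the listed features as the baseline, and which baseline is right was not tested.

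With sole features alone, 13 MTAP-null members rose and 18 had higher usage, and 6 MTAP-WT members rose, 0 fell and 6 had higher usage. Without features named for a transcript, 2 MTAP-null and 0 MTAP-WT members fell. At an authors' adjusted p under 0.01, 4 MTAP-WT members had higher usage. An FDR under 0.01 left 7 MTAP-null and 3 MTAP-WT rMATS events, and 20 reads in every library 6 and 4. Leaving out 1 library at a time gave 25 to 31 risen and 3 to 5 fallen MTAP-null members, with 3 fallen without DMSO replicate 1 or 3. In MTAP-WT cells it gave 9 to 10 risen and 1 fallen. NUTM2A-AS1 ranged from -0.16 to 0.0035, above 0 without AGI24512 replicate 1. PAX8-AS1 E014 in MTAP-WT cells ranged from -0.12 to 0.030, above 0 without AGI24512 replicate 1 or DMSO replicate 1 (0.017).

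Deviations of same-numbered libraries correlated at 0.090, 0.016 and -0.034 in MTAP-null and at -0.150, -0.280 and 0.046 in MTAP-WT cells. Different-numbered libraries gave -0.106 to 0.114 in MTAP-null and -0.150 to 0.283 in MTAP-WT cells. With 3 libraries per group, these values cannot show whether same-numbered libraries were handled together. With a replicate block 30 MTAP-null members rose, LOC150776 (0.33, adjusted p = 0.0195) and RNF19A E017 (0.71, adjusted p = 0.0428) being gained, and 5 fell, and 10 MTAP-WT members rose and 1 fell. The block left 0 of the 3 genotype differences called, with PAX8-AS1 E014 at -0.54 (adjusted p = 0.0525), as did leaving out MTAP-null DMSO replicate 2. It was called with DESeq2 (adjusted p = 0.0051) and with TMM scaling (adjusted p = 0.049). Leaving out each other library kept that difference called, at -0.63 to -0.47. The cause of these changes was not tested. Sequencing depth is unknown, and low features such as PCBP1-AS1 rest on under 10 reads per library.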
